A study of Homo sapiens with 2 samples.

Results

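The hypoxia response and angiogenic genes described here are 32 named genes, made up of 7 regulators of the hypoxia-inducible factors (HIFs) and 25 targets and secreted factors. They were taken by name, but the list was chosen with earlier results of these data known. A gene counted as present if at least 1 probe set on the array is paired with it alone. Of the 32 genes, 31 had such a probe set (79 probe sets), out of 19775 genes with one in the whole table; no intensity of CA9 was analysed here. The RNA came from HCT116, an established line of human colorectal cancer cells, with 1 array of cells labelled as over-expressing CPEB4 through a lentivirus (HCT116-CPEB4) and 1 array of cells labelled wild type (HCT116-GFP). CPEB4 is an RNA-binding protein that acts on poly(A) tails and translation. Both lines were grown in the same serum-containing medium in a humidified incubator with added CO2, and no oxygen level or hypoxic treatment is given in the labels. Whether the line labelled HCT116-CPEB4 is a clone or a pool, the promoter that drives CPEB4 and whether the GFP line received a vector are not given either.

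Cells sense oxygen through enzymes that hydroxylate the HIF alpha subunits. With oxygen, prolyl hydroxylation by EGLN enzymes lets VHL, part of a ubiquitin ligase, mark the alpha subunit for destruction, and asparagine hydroxylation by HIF1AN restrains its activity. Without oxygen, the alpha subunits HIF1A and EPAS1 pair with ARNT and bind short DNA elements near genes for glycolysis, vessel growth, mitophagy and matrix assembly. The alpha subunits are controlled largely at the protein level, which arrays do not measure, and in solid tumours of the colon the pathway is known for driving VEGFA and carbonic anhydrase expression.

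Each value is a linear intensity from the authors' deposited table, and each difference is the log2 intensity on the array labelled HCT116-CPEB4 (the CPEB4-labelled array) minus that on the HCT116-GFP array. With 1 array for each line no difference has a replicate, no test across samples is possible and no p-value is given, and precision is limited by having so few arrays. In RNA from a whole culture, fewer cells expressing a gene and less RNA per cell cannot be told apart. A gene was measured if the higher reading of a probe set reached 60.8, the median of all values (the dim filter), and it took the value of its brightest such probe set; 13704 genes were measured. Sizes were read by 2 rules, 1.5-fold and 2-fold, which are rules of size and not tests. CPEB4 itself read 628 on the CPEB4-labelled array, against 731 on the HCT116-GFP array, at its brightest probe set. CPEB4 was lower on the CPEB4-labelled array at all 4 of its probe sets. At 174 against 183 the difference was only −0.08, and the dimmest probe set (21.0 against 60.1) was under the dim filter on both arrays. The label is thus not borne out by the array, and every direction below rests on the label. Probe sets outside the introduced sequence would check nothing, and their positions were not used here.

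Markers of the labelled cell type were bright on both arrays. Of 10 colon epithelial markers 9 reached the dim filter, and they summed to 88704 units on the CPEB4-labelled array, against 87840 on the HCT116-GFP array. Among these, EPCAM, KRT8, KRT18 and KRT19 were bright and differed by −0.02 to 0.17. The adhesion protein CDH1 was also bright, at 2954 against 3709 (−0.33), while the differentiation markers KRT20, CDX2, VIL1, CEACAM5 and LGALS4 were dim, with LGALS4 under the filter. Endothelial markers reached the filter in 2 of 7 cases and summed to 163 against 367 units in the same order, fibroblast markers in 2 of 6 cases with 1499 against 1108 units, and blood markers in 3 of 6 cases with 658 against 731 units. None of these markers was listed at 0, and their part in the differences below was not tested.

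As a group, the hypoxia and angiogenic genes read lower on the CPEB4-labelled array by a modest amount. The 29 measured members had a median difference of −0.24, which is 1.18-fold, beside a median of 0.00 over all measured genes. Of these 29, 20 lay below 0, where 49.9% of all measured genes did. At 1.5-fold or more, 7 members were lower, where 8.3% of all measured genes were, and 0 were higher, where 8.22% of all measured genes were. At 2-fold or more, 1 member differed in either direction (VEGFB, lower), and 7.4% of all measured genes did. The 7 members at 1.5-fold were ANGPTL4, BHLHE40, NDRG1, ANG, P4HA1, P4HA2 and VEGFB. All but ANG and P4HA2 were measured only by probe sets whose suffix, _s_at, marks a possible match to more than one transcript. VEGFB passed the dim filter through its HCT116-GFP reading alone and so had to differ. Among the 28 members with both arrays at or above the filter, 19 lay below 0 and 6 were lower by 1.5-fold. The shares of all genes under that stricter filter were not computed, so these counts have no matched share beside them. VEGFC and LOX were under the dim filter on both arrays and are not among the 29.

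**Figure D1:**
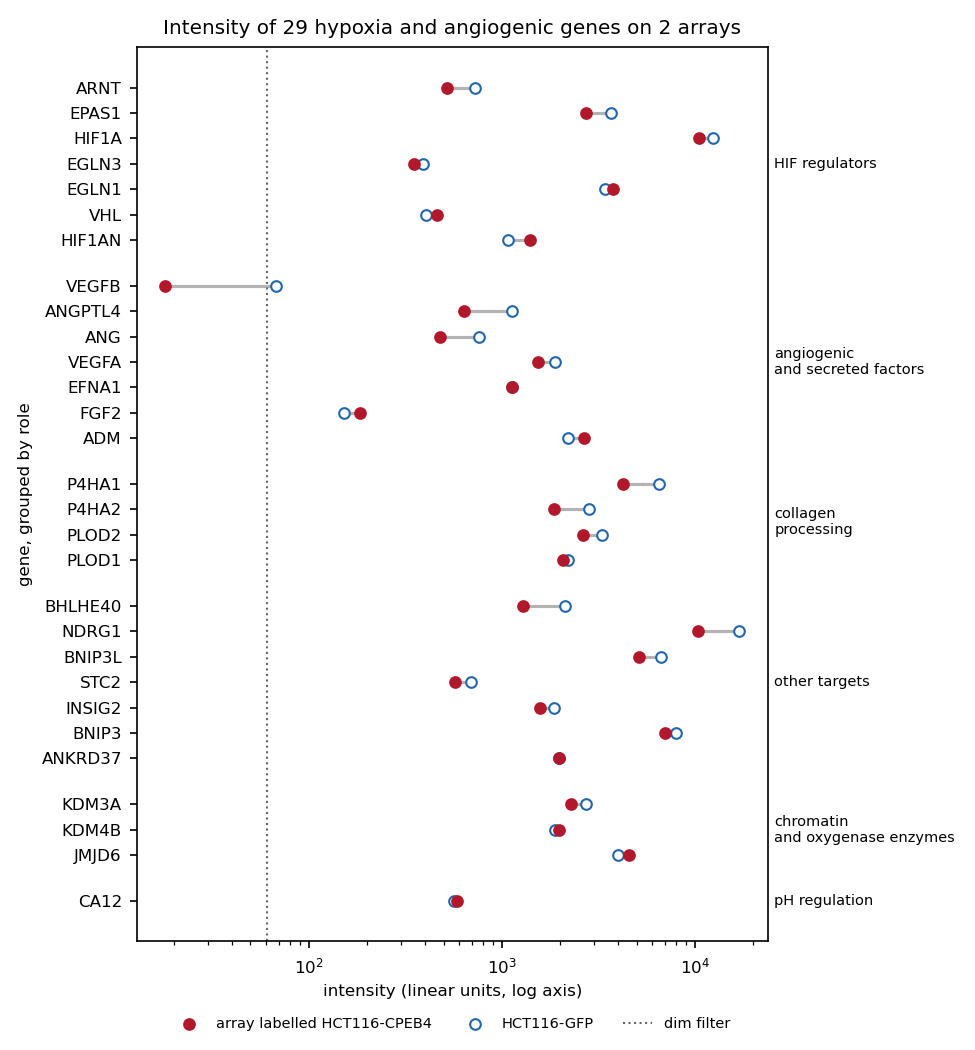
Intensity (linear units on a log axis) of the brightest kept probe set of each of the 29 measured genes, grouped by role, with 1 filled point for the CPEB4-labelled array, 1 open point for the HCT116-GFP array and a dotted line at the dim filter. Filled points lie left of open ones in 20 genes, and VEGFB is the 1 gene whose filled point lies under the filter.

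The share of all genes that pass a fold rule depends on brightness, since dim probe sets scatter more. The members are mostly bright, with 20 of the 29 at a mean intensity of 1000 or more (the geometric mean of both arrays), where 5333 genes of the table lie. Of these 20 members, 14 lay below 0, where 51.7% of all genes of that brightness did, and the median was −0.24, against −0.01 for all of them. Lower by 1.5-fold or more were 4 of the 20 bright members (BHLHE40, NDRG1, P4HA1 and P4HA2), where 1.13% of all genes of that brightness were.

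**Figure D2:**
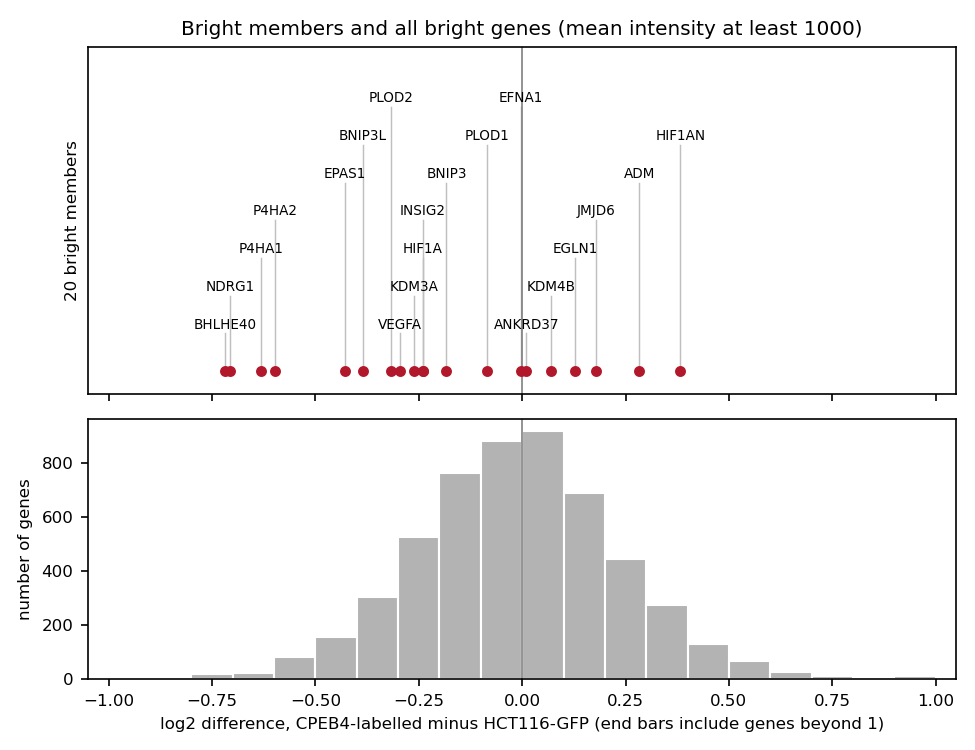
Log2 difference of the 20 members with a mean intensity of at least 1000 (upper panel, 1 point a gene, heights only separate the names) above a histogram of all genes of that brightness (lower panel, number of genes in bins of 0.1). The members run from −0.72 for BHLHE40 to 0.38 for HIF1AN, and 4 lie beyond the 1.5-fold rule on the left and 0 on the right.

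RNA quality controls moved in the same direction. The ACTB control probe sets, which read the ends and middle of this abundant actin transcript, differed by −0.01 at the 3′ end, −0.16 in the middle and −0.34 at the 5′ end. The ratio of 3′ to 5′ signal for ACTB was 10.3 on the CPEB4-labelled array, against 8.23 on the HCT116-GFP array. For GAPDH, whose protein is a glycolytic enzyme, the 3 controls differed by −0.08, −0.13 and −0.15. Its ratio was 1.04 on the CPEB4-labelled array, against 0.99 on the HCT116-GFP array. GAPDH is also among the glycolytic HIF targets read below, so it is not a control apart from the pathway. The 5′ difference of ACTB is thus larger in size than the median of the members, while the 3′ differences, −0.01 for ACTB and −0.08 for GAPDH, are smaller. The part of RNA quality in the differences of the members was not tested.

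The only measure of error within the 2 arrays is the agreement between probe sets of a gene, which share the RNA and are not replicates. Of the 29 members, 16 had 2 or more kept probe sets. The differences of their brightest pair were apart by a median of 0.22, against 0.27 over the 6520 genes of the table that had as many. Most members are bright, however, and over the bright genes of the table this gap was 0.20. The gap of the members is about as large as the median difference of all 29, −0.24. All kept probe sets lay below 0 in 7 of these 16 members, where 22.2% of the 6520 genes did. In 2 members all lay above 0, and 7 had both signs. The shares of all genes with those outcomes were not computed, and the 22.2% is not limited to bright genes. Of the 7 members at 1.5-fold, ANGPTL4 and P4HA2 had a second kept probe set, and those pairs were 0.49 and 0.40 apart.

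**Figure D3:**
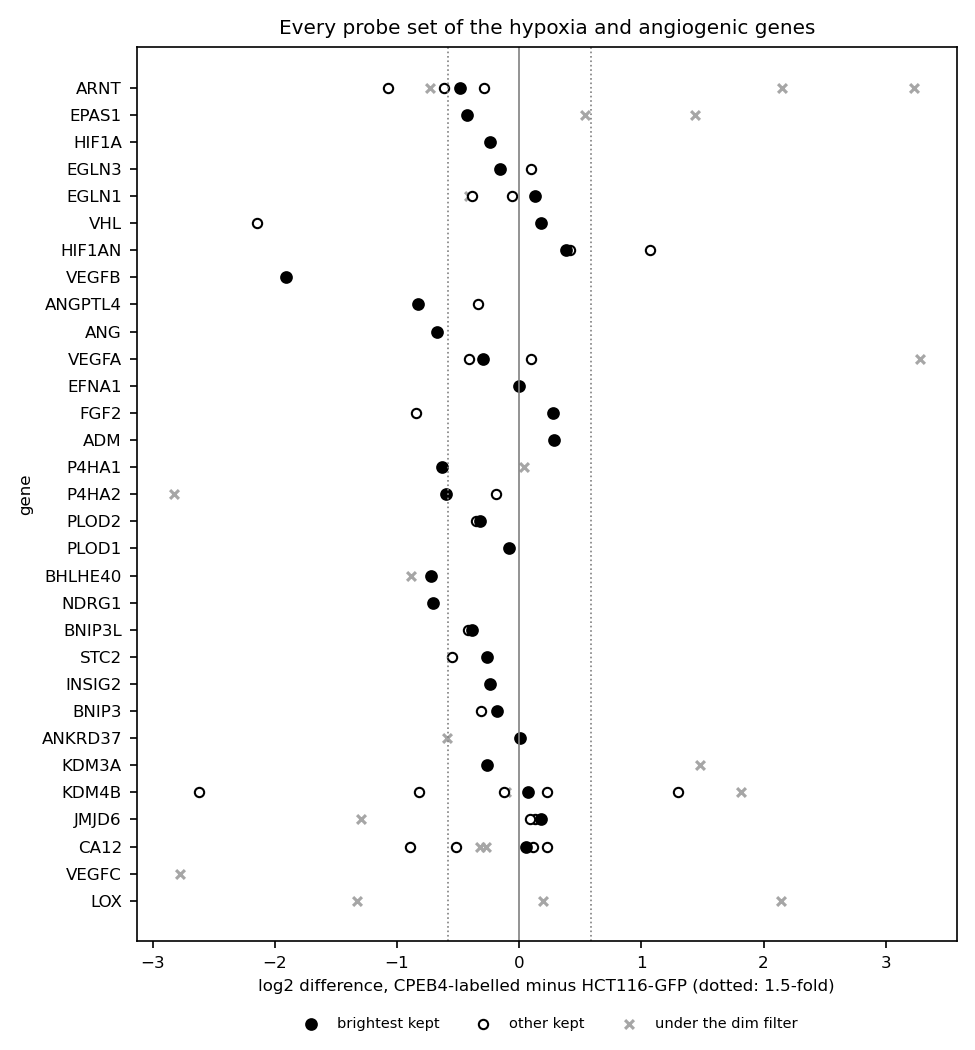
Log2 difference of every probe set (x axis) for the 31 genes with one, with filled points for the brightest kept probe set, open points for other kept ones, crosses for those under the dim filter and dotted lines at 1.5-fold. Crosses spread from −2.83 to 3.28, while the filled points other than that of VEGFB stay between −0.83 and 0.38.

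Among the regulators, the 3 HIF subunits on the member list read lower and the inhibitor HIF1AN read higher, all by less than 1.5-fold at the brightest probe set. HIF1A, the oxygen-regulated subunit of HIF-1, read 10569 on the CPEB4-labelled array, against 12487 on the HCT116-GFP array, a difference of −0.24 at its single probe set. EPAS1, the alpha subunit of HIF-2, read 2745 against 3695 (−0.43), and its 2 other probe sets were under the dim filter. ARNT, the partner of both, read 524 against 731 (−0.48), and its 4 kept probe sets ran from −1.07 to −0.29. Its 3 probe sets under the filter ran from −0.73 to 3.23, which shows how far such dim readings scatter. These 3 subunits were thus lower on the CPEB4-labelled array at each probe set that was kept.

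HIF1AN, the asparagine hydroxylase that blocks the HIF activation domain, was the measured member farthest above 0. It read 1410 on the CPEB4-labelled array, against 1082 on the HCT116-GFP array (0.38), and its other probe sets read 1137 against 853 (0.41) and 387 against 184 (1.07). All 3 agree in direction, and 94.7% of the genes of its brightness had a lower difference than its brightest probe set. As HIF1AN is the highest of the measured members, this share does not show its difference to be unusual. EGLN1, the main prolyl hydroxylase acting on HIF alpha, read 3760 against 3442 (0.13), although its other kept probe sets were at −0.06 and −0.38. EGLN3, a prolyl hydroxylase that is itself a HIF target, read 352 against 393 (−0.16), and its second probe set went the other way (0.10). For VHL the probe sets went far apart, with 461 against 408 (0.18) at the brighter one and 15.6 against 68.9 (−2.14) at the other, whose CPEB4-labelled reading lay under the dim filter. The directions of EGLN1, EGLN3 and VHL are therefore not settled by these probe sets. The 7 regulators had a median of −0.16, with 4 below 0 and 3 above, and none at 1.5-fold in either direction.

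The 22 measured targets and factors had a median of −0.26, with 16 below 0 and 6 above. Among the angiogenic and secreted factors, 5 of 7 lay below 0. ANGPTL4, a secreted inhibitor of lipoprotein lipase, read 636 on the CPEB4-labelled array, against 1133 on the HCT116-GFP array (−0.83), and 92.7 against 117 (−0.34) at its second probe set. Of the 2843 genes between 377, the 75th percentile of all values, and 1000 in mean intensity, 0.633% had a lower difference. ANG, the secreted ribonuclease angiogenin, read 480 against 765 (−0.67) at its only probe set. VEGFA, the main growth factor for blood vessels, read 1534 against 1884 (−0.30) at its brightest probe set and 126 against 167 (−0.41) at another. At a further VEGFA probe set the reading was 265 against 249 (0.09), and the last was under the dim filter. The brightest VEGFA probe set thus differed by about as much as the middle of the member list, and its probe sets did not share a sign.

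VEGFB, a relative of VEGFA linked to fatty acid handling, had the largest measured difference on the dimmest reading. It read 18.1 on the CPEB4-labelled array, against 68.1 on the HCT116-GFP array (−1.91), so its HCT116-GFP value only just passed the filter of 60.8 and the other did not. Across genes under 377 in mean intensity, 3.84% had a lower difference. The filter forced VEGFB to differ and that range holds many brighter genes, so this share does not show how unusual the value is. VEGFC, a growth factor for lymphatic vessels, read 4.18 against 28.6, both under the filter, so no difference was read from it. ADM, the vasodilator peptide adrenomedullin, went the other way at 2684 against 2205 (0.28). FGF2, a fibroblast growth factor, read 185 against 153 (0.28) at one probe set and 112 against 201 (−0.85) at the other. EFNA1, a ligand of Eph receptors, read 1134 against 1137. ADM, read by 1 probe set, was the 1 measured secreted factor with no kept probe set below 0.

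Genes for collagen modification read lower without exception among those measured. P4HA1, a catalytic subunit of collagen prolyl hydroxylase, read 4227 on the CPEB4-labelled array, against 6545 on the HCT116-GFP array (−0.63), and 0.806% of the genes of its brightness had a lower difference. Its paralog P4HA2 read 1873 against 2834 (−0.60) and 468 against 535 (−0.19). PLOD2, a lysyl hydroxylase that promotes collagen cross-links, read 2647 against 3298 (−0.32) and 1119 against 1430 (−0.35), while PLOD1, of the same family, read 2070 against 2195 (−0.08). LOX, the lysyl oxidase that cross-links collagen, was under the filter at all 3 of its probe sets, the brightest reading 47.1 against 41.1. The 4 measured collagen genes had a median of −0.46.

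The other targets lay below 0 in 6 of 7 cases. BHLHE40, a transcriptional repressor, read 1295 on the CPEB4-labelled array, against 2130 on the HCT116-GFP array (−0.72), and NDRG1, a stress-induced protein, read 10445 against 17033 (−0.71). These were the lowest differences among the bright members, and 0.394% and 0.469% of the genes of that brightness lay lower than BHLHE40 and NDRG1. The mitophagy receptor BNIP3, which tags mitochondria for removal, read 7018 against 7967 (−0.18) and 2541 against 3150 (−0.31). Its relative BNIP3L read 5130 against 6700.5 (−0.39) and 2402 against 3215 (−0.42). Both receptors were thus lower at each of their probe sets. The secreted glycoprotein STC2 read 576 against 692 (−0.26) and 451 against 662 (−0.55). INSIG2, which retains the SREBP machinery in the endoplasmic reticulum, read 1572 against 1857 (−0.24). ANKRD37, an ankyrin repeat protein, was the exception at 1992 against 1978 (0.01).

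Chromatin and related oxygenases did not share a direction. KDM3A, a histone demethylase, read 2283 on the CPEB4-labelled array, against 2737 on the HCT116-GFP array (−0.26), and it was the 1 gene of this group below 0 at its brightest probe set. JMJD6, a jumonji-domain oxygenase, read 4539 against 4008 (0.18) and was above 0 at all 3 kept probe sets. KDM4B, another histone demethylase, read 1989 against 1894 (0.07), with 6 kept probe sets from −2.62 to 1.30. Both ends of that range (10.2 against 62.9 and 63.2 against 25.7) passed the dim filter on 1 array only and so had to differ. Its probe sets at or above the filter on both arrays ran from −0.12 to 0.23. CA12, a membrane carbonic anhydrase that acts on extracellular pH, read 590 against 568 (0.06), with 5 kept probe sets from −0.89 to 0.23. Neither KDM4B nor CA12 has a settled direction here.

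HIF complexes recognise a core that reads ACGTG or GCGTG, and both were searched on both strands in RefSeq promoter windows (GRCh38.p14) of 300 bases, 250 before and 50 after a gene's start. A window was matched for 27 of the 32 members, and VEGFA, VHL, JMJD6, NDRG1 and BNIP3L were not matched. Either motif was present in 20 of the 24 matched members that were measured (83.3%), against 74.1% of matched genes with a mean intensity of 1000 or more and 67.9% of all matched measured genes. Over all 35116 windows, ACGTG was held by 21.4% and GCGTG by 36.5%. Of matched members below 0, 14 of 17 held either motif, and of those above 0, 6 of 7 did. Of the 6 matched members at 1.5-fold, 5 held either motif, and P4HA2 held neither. A match describes the letters only and shows no binding. The windows of 3 genes that were lower by 1.5-fold (BHLHE40, P4HA1 and ANGPTL4), of ADM, which was higher, and of ANKRD37, which differed by 0.01, are shown 5′ to 3′ on the gene's strand, with each motif on either strand in capitals.

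BHLHE40 (chr3:4979187-4979486, plus strand): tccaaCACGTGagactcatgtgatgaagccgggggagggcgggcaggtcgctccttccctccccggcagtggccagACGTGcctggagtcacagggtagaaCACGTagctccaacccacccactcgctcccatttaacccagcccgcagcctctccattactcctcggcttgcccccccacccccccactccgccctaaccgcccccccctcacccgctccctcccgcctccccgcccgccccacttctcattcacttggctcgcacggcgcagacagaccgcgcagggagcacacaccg
P4HA1 (chr10:73096817-73097116, minus strand): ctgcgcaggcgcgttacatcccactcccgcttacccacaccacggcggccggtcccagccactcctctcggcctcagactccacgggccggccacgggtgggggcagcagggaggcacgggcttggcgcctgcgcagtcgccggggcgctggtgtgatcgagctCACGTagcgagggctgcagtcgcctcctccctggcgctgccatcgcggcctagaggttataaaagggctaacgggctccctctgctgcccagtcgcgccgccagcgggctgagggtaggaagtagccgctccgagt
ANGPTL4 (chr19:8363905-8364204, plus strand): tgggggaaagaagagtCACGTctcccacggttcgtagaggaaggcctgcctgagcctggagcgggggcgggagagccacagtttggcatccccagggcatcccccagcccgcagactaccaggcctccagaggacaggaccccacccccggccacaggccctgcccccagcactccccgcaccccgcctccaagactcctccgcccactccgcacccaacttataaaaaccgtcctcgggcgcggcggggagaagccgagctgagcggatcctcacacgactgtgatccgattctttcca
ADM (chr11:10304823-10305122, plus strand): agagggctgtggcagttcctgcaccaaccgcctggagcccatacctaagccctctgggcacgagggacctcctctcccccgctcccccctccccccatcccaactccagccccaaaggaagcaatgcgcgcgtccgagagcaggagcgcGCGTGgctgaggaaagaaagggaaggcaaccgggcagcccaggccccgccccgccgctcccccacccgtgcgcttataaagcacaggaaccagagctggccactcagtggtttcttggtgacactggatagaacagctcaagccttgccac
ANKRD37 (chr4:185396591-185396890, plus strand): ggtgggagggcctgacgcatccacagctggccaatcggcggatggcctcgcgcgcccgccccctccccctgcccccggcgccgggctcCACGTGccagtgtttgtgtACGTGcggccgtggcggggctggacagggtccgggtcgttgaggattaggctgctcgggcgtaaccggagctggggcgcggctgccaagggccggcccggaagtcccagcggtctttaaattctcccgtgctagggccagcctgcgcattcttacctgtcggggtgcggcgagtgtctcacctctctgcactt

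The windows of BHLHE40 and ANKRD37 each hold the palindrome CACGTG, in which ACGTG is read on both strands, and which other basic helix-loop-helix factors are also known to bind. Counted per strand, ACGTG occurs 4 times in the BHLHE40 window and 3 times in that of ANKRD37, and their differences were −0.72 and 0.01. The single ACGTG of P4HA1 begins 86 bases before the start and that of ANGPTL4 begins 234 bases before it, while ADM holds 1 GCGTG, which begins 101 bases before its start. These 5 windows were picked with their differences known, so how the number of motifs relates to the difference cannot be read from them.

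Other genes of the pathway were read from 4 lists. Over 24 measured HIF targets outside glycolysis the median was −0.22, and 18 lay below 0, 3 were lower by 1.5-fold or more and 1 was higher, beside 8.3% and 8.22% of all measured genes. DDIT4, an inhibitor of mTORC1, read 3163 on the CPEB4-labelled array, against 7878 on the HCT116-GFP array (−1.32). CCNG2, an unconventional cyclin, read 2680.3 against 4549 (−0.76), with 5 kept probe sets up to 0.12. The dimmer PPFIA4, a liprin scaffold protein, read 73.4 against 141 (−0.95), and RCOR2, a transcriptional corepressor, was higher at 198 against 102 (0.96). Glycolytic HIF targets had a median of −0.16 over 22 measured genes, with 17 below 0, 2 at 1.5-fold or more lower and 0 higher, beside the same shares of all genes. That median was −0.07 after quantile normalization and −0.10 after loess. The 2 that were lower by 1.5-fold were ALDOC, an aldolase, at 814 against 1330.5 (−0.71) and SLC2A3, a glucose transporter, at 1025 against 1557 (−0.60). Both have a mean intensity of 1000 or more, where 1.13% of all genes of that brightness were lower by 1.5-fold.

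Other HIF regulators did not share the direction of the targets. Their median was 0.04 over 17 measured genes, with 7 below 0 and 10 above, 0 at 1.5-fold or more lower and 3 higher, beside 8.3% and 8.22% of all measured genes. LIMD1, a scaffold that links prolyl hydroxylases to VHL, read 1723 on the CPEB4-labelled array, against 1062 on the HCT116-GFP array (0.70), with 3 kept probe sets from 0.06 to 0.70. Also higher were ARNT2 at 159 against 26.8 and HIF3A at 61.5 against 26.7, which are further HIF subunits. Both had HCT116-GFP readings under the dim filter. Other angiogenic factors and receptors had a median of 0.07 over 16 measured genes, with 7 below 0, 2 at 1.5-fold or more lower and 2 higher, beside those shares, and that median turned below 0 under some filters. The growth factor PDGFA read 945 against 1661 (−0.81), and its second probe set differed by −0.85. The ephrin receptor EPHB4 read 541 against 999 (−0.88), and its second probe set differed by −0.21. EDN1, the vasoconstrictor endothelin, was higher at 160 against 97.8 (0.71). The second higher gene, the Notch ligand DLL4 at 72.9 against 41.6, passed the dim filter through its CPEB4-labelled reading alone.

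**Figure D4:**
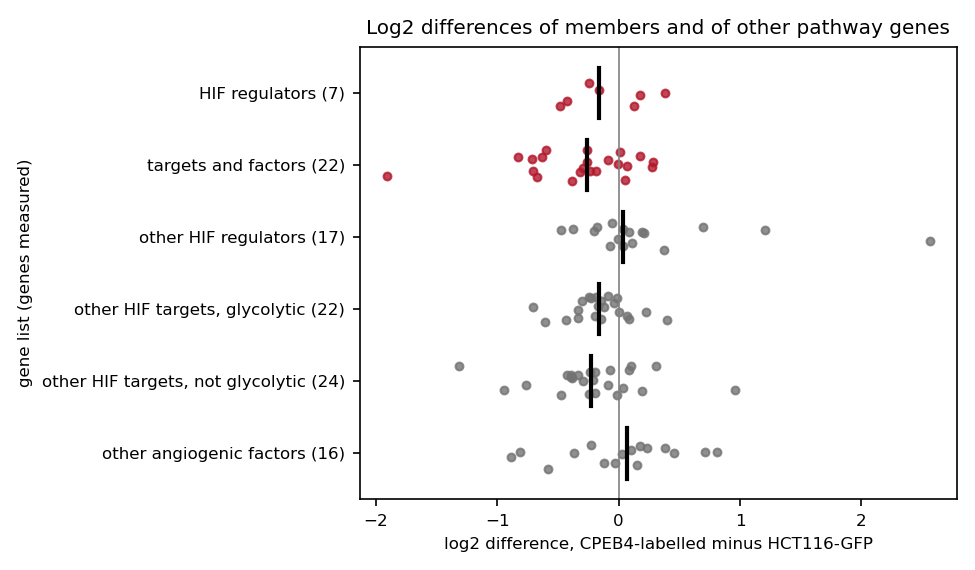
Log2 differences of single genes (points, spread vertically at random within a list) in the regulators and the targets among the members (red) and in 4 lists of other pathway genes (grey), with a black bar at each median. The medians are −0.16 for HIF regulators, −0.26 for targets and factors, 0.04 for other HIF regulators, −0.16 for glycolytic targets, −0.22 for other targets and 0.07 for other angiogenic factors.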

How the data were processed

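The authors' deposited table holds 1 linear intensity per probe set and array. The submitters' processing notes list Partek with no role, and how probes were summarised, corrected for background and scaled is not stated there. Both arrays have a trimmed mean of 500.1 (2% removed at each end), so they share an overall level, and brightness-dependent differences may remain. Of 54675 probe sets, 41097 have 1 gene in the platform annotation, 1801 have several and 11777 are unnamed here. Symbols were updated by Entrez identifier to RefSeq (GRCh38.p14), which matched 41043. Probe sets with 1 gene were used, and 0 columns of per-sample values were left unused.

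Log2 differences were computed without a pseudocount (Python 3.11.15, pandas 2.3.3), and the procedure was tested on simulated data. The planted differences there were larger than that of any measured member, with noise that did not depend on brightness. That check does not show how well differences of the members' size are read. The members, the other gene lists and the size rules were chosen with earlier results of these data known. All 32 members are named. From each other list, the text names up to 4 genes at 1.5-fold with both arrays at or above the dim filter. ARNT2, HIF3A and DLL4 were named after their values were seen. Promoter windows came from RefSeq. The alternatives were other dim filters, quantile and loess (statsmodels 0.14.6) normalization, a pseudocount of 16, the mean over probe sets, and removal of probe sets that may cross-hybridise. A correction for brightness band was added after seeing the data.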

Additional observations from a re-analysis of the deposited data

How the results depend on the processing

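No paired analysis was possible because each line has 1 array. Under the 8 alternative settings and the brightness correction, the median over the measured members stayed between −0.28 and −0.23, that of the regulators between −0.33 and −0.15 and that of the targets and factors between −0.31 and −0.18. Of the 29 measured members, 23 kept their sign in each alternative that measured them (19 below 0 and 4 above). VHL, CA12 and KDM4B turned below 0 both without _s_at, _x_at and _a_at probe sets and with the mean over probe sets, EGLN1 and FGF2 did so with that mean, and EFNA1, close to 0, turned above 0 with quantile normalization and with the brightness correction. Members at 1.5-fold or more lower numbered 3 in place of 7 without the _s_at, _x_at and _a_at probe sets, which leaves NDRG1, P4HA1, BHLHE40, ANGPTL4 and VEGFB unmeasured and takes VHL from its dim probe set. With the mean over probe sets, members at 1.5-fold or more lower numbered 8, with P4HA2 (−0.39) no longer among them and ARNT (−0.61) and VHL (−0.98) added, and 1 member (HIF1AN) was higher by that rule. Members at 2-fold numbered 2 without the dim filter, 0 with the stricter one (the 75th percentile, 377) and 0 with both arrays at or above the filter. The median of other angiogenic factors was −0.0002 without the dim filter and −0.37 with the stricter one, which measures fewer genes. The gap between probe sets of members was 0.34 without the dim filter and 0.13 with the stricter one. Dim signal limits VEGFB, VEGFC and LOX most.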
